A study of Mus musculus with 4 samples.

Results

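The activating Fc receptors and their signalling chains were examined in RAW264.7, a macrophage-like mouse line that grew from a tumour induced by Abelson leukaemia virus. The genes were chosen by name: the IgG receptors Fcgr1, Fcgr3 and Fcgr4, the adaptors Fcer1g and Tyrobp, the lipid receptor Trem2 and the kinase Syk. Earlier results of these data were known when the genes were chosen. All 7 were found among the 21523 genes of the deposited table. The 2 libraries of treated cells came from RAW264.7 cultures given 0.5 mM 1,5-anhydroglucitol (1,5-AG) for 24 h. The 2 control libraries came from RAW264.7 cells labelled as having no treatment, for which no vehicle and no culture time was given. 1,5-AG is a polyol of the blood with the ring of glucose but no hydroxyl at carbon 1. All cells were kept in DMEM with 10% fetal bovine serum and antibiotics. The labels do not say that the libraries of a group came from separate cultures, so p-values measure the spread between libraries, which may be technical. A transformed line stands in for tissue macrophages here.

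In the mouse, an activating Fc receptor for IgG has no signalling motif of its own. It binds the constant part of IgG and pairs in the membrane with a dimer of the Fc receptor gamma chain, the product of Fcer1g. That chain carries an immunoreceptor tyrosine-based activation motif (ITAM). Tyrobp encodes DAP12, the adaptor that does the same for Trem2 and for many other myeloid receptors. Src family kinases phosphorylate the ITAM tyrosines, Syk docks there, and phagocytosis, oxidant production and cytokine release follow. Fcgr2b, the inhibitory IgG receptor, opposes these signals.

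The ITAM is what joins the adaptors to Syk, so its coding bases are shown for both adaptors, from GENCODE release M21 transcripts on the build mm10. Capitals mark the codons of the paired tyrosines and of the leucine that stands 3 codons after each. The pattern searched was a tyrosine, any 2 residues, a leucine or isoleucine, 6 to 8 residues, and the first 4 positions again.

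Tyrobp: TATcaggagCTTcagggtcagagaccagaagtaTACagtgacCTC
Fcer1g: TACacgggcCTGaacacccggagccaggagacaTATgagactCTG

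The Tyrobp stretch is read from 2 exons within chr7:30415670-30417382 on the plus strand. The Fcer1g stretch is read from 2 exons within chr1:171229889-171230072 on the minus strand. Each runs over 15 codons, with 7 codons between its tyrosine-leucine pairs, and 19 of the 45 bases were identical. The pattern was in 1 of 1 coding transcript of Tyrobp and in 1 of 2 of Fcer1g. It was in none of the coding transcripts of Fcgr1, Fcgr3, Fcgr4, Trem2 and Syk. Of 21760 coding genes searched, 2.91% held it in at least 1 transcript, so the pattern alone does not mark an adaptor.

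Values are given as FPKM, a fragment count divided by exon length and by library size. The libraries held 14539322 and 15032626 gene-assigned fragments with 1,5-AG and 15079309 and 16139012 in control. The identity of the cells was checked on macrophage markers, and all 7 exceeded 1 FPKM. Their summed level was 3855 to 3950 FPKM with 1,5-AG and 5322 to 5470 FPKM in control. Without Lyz2, the macrophage lysozyme, it was 854.2 to 854.8 FPKM with 1,5-AG and 899.5 to 916.6 FPKM in control. Cd68, a lysosomal membrane protein, averaged 475.4 ± 5.08 FPKM with 1,5-AG and 498.8 ± 1.204 FPKM in control (SD, n = 2 each). Csf1r, the receptor of the macrophage growth factor, averaged 238.8 ± 2.29 FPKM with 1,5-AG and 258.2 ± 0.237 FPKM in control. Adgre1, the gene of F4/80, averaged 17.2 ± 0.417 FPKM with 1,5-AG and 21.7 ± 2.34 FPKM in control. None of the 3 passed the limma test described next, whereas with voom, also described there, Csf1r (log2 difference -0.11, adjusted p = 0.0211) and Adgre1 (-0.33, adjusted p = 0.00593) passed as lower with 1,5-AG. No listed and measured marker of neutrophils, dendritic cells, mast cells and basophils, lymphocytes or fibroblasts reached 1 FPKM in any library. Fcrl1, an Fc receptor-like gene of B cells outside the marker lists, had 11.65 and 12.47 FPKM with 1,5-AG and 10.76 and 10.87 FPKM in control. Mast cells and basophils also use Fcer1g; 1 of their 6 listed markers, Cpa3, was measured, at 0 to 0.0451 FPKM with 1,5-AG and 0 in control. The part of the lower macrophage markers in the results was not tested. In bulk RNA, fewer cells of a type and less RNA per cell cannot be told apart.

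The comparison asks whether 1,5-AG changes the RNA of the receptors, adaptors and kinase. The low-affinity IgG receptor Fcgr3 was lower in 1,5-AG cells, at 3.88 ± 0.585 FPKM against 6.95 ± 0.368 FPKM in control, whereas the high-affinity receptor Fcgr1 was at 23.8 ± 1.70 FPKM against 21.99 ± 1.07 FPKM (SD, n = 2 each). The adaptor Tyrobp and the kinase Syk were each 11.7% lower with 1,5-AG, by their mean FPKM. None of the 7 genes passed the test across all genes, limma on log2(FPKM + 1) with Benjamini-Hochberg adjustment at 0.05, in which 1.46% of 11120 tested genes passed (0.809% higher and 0.647% lower). An unadjusted p under 0.05 was found for 5 of the 7, all lower with 1,5-AG, against 18.2% of tested genes in either direction and 9.04% lower. With voom, a limma test on fragments recovered from the FPKM, 3 of the 7 passed, all lower, as were the macrophage markers Csf1r and Adgre1, against 8.28% of genes (3.64% higher and 4.64% lower). In 5 of the 7 both 1,5-AG libraries lay below both control libraries. Of tested genes, 25.4% had that order and 49.6% had no overlap in either direction. Fcgr4 is in both sets of 5. It entered the test through its control libraries, at a mean of 1.02 FPKM against a filter of 1 FPKM. The 7 were chosen with earlier results of these data known, so these shares are a background and not a test. The median difference of the 7 was -0.18 on the log2 scale, and that of all tested genes was -0.00252.

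**Figure D1:**
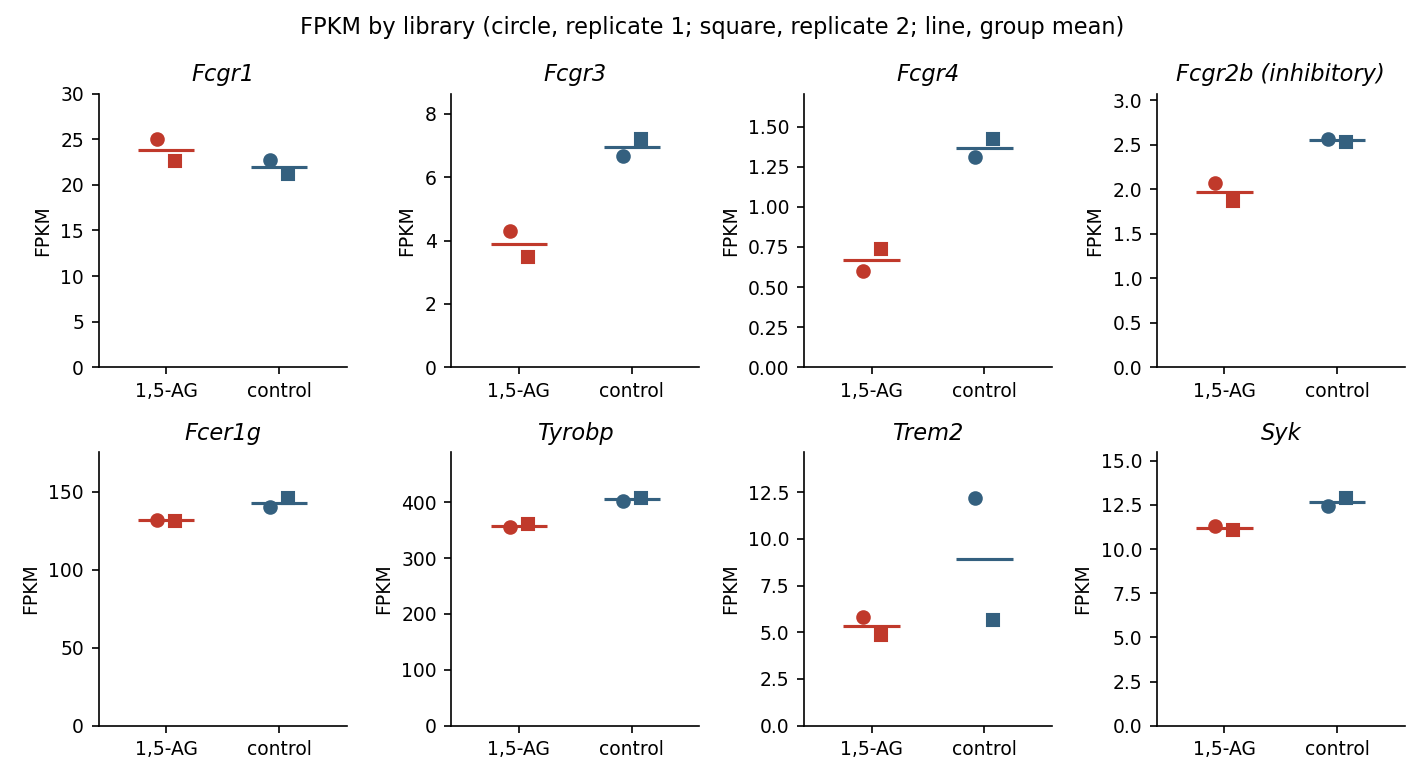
FPKM in each library, with the 1,5-AG libraries left of the control libraries in every panel; circles are replicate 1, squares replicate 2 and lines group means. Both 1,5-AG libraries lie below both control libraries for Fcgr3, Fcgr4, Fcgr2b, Fcer1g, Tyrobp and Syk, and the groups overlap for Fcgr1 and Trem2.

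The receptors are described first. Fcgr1, which binds monomeric IgG with high affinity, had 25.02 and 22.6 FPKM in the 1,5-AG libraries and 22.75 and 21.2 FPKM in the control libraries. The groups overlapped, since 1 control library was above 1 treated library. The difference was 0.11 on the log2(FPKM + 1) scale, with a 95% interval from -0.06 to 0.28 (limma adjusted p = 0.464). The gene lies at chr3:96282909-96293969 on the minus strand.

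Fcgr3, a receptor for IgG complexes, had 4.30 and 3.47 FPKM in the 1,5-AG libraries, or 109 and 91 fragments. It had 6.69 and 7.21 FPKM, or 176 and 203 fragments, in the control libraries. The higher 1,5-AG library was well under the lower control library. The log2 difference was -0.71 (SE 0.10, 95% interval -0.97 to -0.45, limma adjusted p = 0.0523), just outside the threshold. Voom gave -0.85 (adjusted p = 0.00170), and over the 14 alternative settings the limma or voom adjusted p ran from 0.00170 to 0.194, past the threshold in 4. Fcgr3 lies at chr1:171051174-171064935 on the minus strand. Its longest coding transcript shares 12.8% of its 50-base windows with Fcgr2b, so reads from those windows could be assigned to either gene.

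Fcgr4, the mouse receptor for IgG2 subclasses, was the weakest of the 7. It had 0.599 and 0.738 FPKM in the 1,5-AG libraries, from 11 and 14 fragments, and 1.31 and 1.42 FPKM in the control libraries, from 25 and 29 fragments. The groups did not overlap, but the exact Poisson 95% interval of the second treated library, 0.403 to 1.24 FPKM, reached into that of the first control library, 0.849 to 1.94 FPKM. These intervals cover counting error only. The log2 difference of -0.51 did not pass (SE 0.14, limma adjusted p = 0.158), nor did that of voom, -1.01 (adjusted p = 0.123). Fcgr4 entered the test with a mean of 1.02 FPKM, just above the filter of 1 FPKM, through its control libraries. With protein coding genes alone its limma adjusted p was 0.0324, and over 13 alternatives it ran from 0.0324 to 0.378. The gene lies at chr1:171018920-171029761 on the plus strand, between Fcgr2b and Fcgr3, and Fcer1g follows on the same chromosome at chr1:171229572-171234365.

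The promoters of the 3 receptors are shown because both libraries of 1,5-AG cells were below control for Fcgr3 and Fcgr4 and not for Fcgr1. They are RefSeq sequences on GRCm38.p6, 250 bases before to 50 after the annotated start, written 5′ to 3′ on the gene's strand. Capitals mark TTCCTC, which is GAGGAA on the other strand, a core that the myeloid factor PU.1 (the product of Spi1) is known to bind.

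Fcgr1 (chr3:96293920-96294219, minus strand): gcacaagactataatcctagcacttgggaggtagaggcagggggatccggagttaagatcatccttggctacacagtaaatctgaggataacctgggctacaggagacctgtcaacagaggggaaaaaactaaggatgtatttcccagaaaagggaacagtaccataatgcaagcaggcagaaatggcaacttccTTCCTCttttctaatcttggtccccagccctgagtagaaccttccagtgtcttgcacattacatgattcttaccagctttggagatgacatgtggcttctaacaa
Fcgr3 (chr1:171059354-171059653, minus strand): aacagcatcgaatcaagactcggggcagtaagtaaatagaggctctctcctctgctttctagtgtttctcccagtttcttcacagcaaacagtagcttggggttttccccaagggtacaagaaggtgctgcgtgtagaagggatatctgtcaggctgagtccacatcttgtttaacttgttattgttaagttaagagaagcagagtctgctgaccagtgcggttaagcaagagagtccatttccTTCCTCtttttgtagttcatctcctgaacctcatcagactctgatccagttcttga
Fcgr4 (chr1:171018676-171018975, plus strand): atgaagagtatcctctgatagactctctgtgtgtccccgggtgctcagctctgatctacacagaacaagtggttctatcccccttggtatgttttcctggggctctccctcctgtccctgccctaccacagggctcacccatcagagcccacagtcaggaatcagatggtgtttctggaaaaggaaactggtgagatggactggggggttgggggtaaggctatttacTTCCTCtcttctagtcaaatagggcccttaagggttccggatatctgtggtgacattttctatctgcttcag

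The match began at position -55 in Fcgr1, -6 in Fcgr3 (-15 from its second annotated start, not shown) and -22 in Fcgr4, counted from the start. The motif was picked after the sequences were read and was searched on both strands. Of the 7 genes 6 had a promoter entry, and 5 of the 6 held the motif: these receptors, Trem2 at position -40 and Syk at the second of its 2 starts. Of 32851 promoters of this length, 28.3% held it. That share is per promoter, whereas a gene counted if any of its starts held the motif, so the shares are not like for like. Whether PU.1 has a part in the levels of these genes was not tested. Spi1 itself had 104 and 95.5 FPKM in the 1,5-AG libraries and 121 and 104 FPKM in the control libraries, with overlapping groups.

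By FPKM, both adaptors were far above Fcgr1, Fcgr3, Fcgr4 and Trem2 in every library. Tyrobp had 355.0 and 361 FPKM in the 1,5-AG libraries and 403 and 408 FPKM in the control libraries, from 3461 to 4417 fragments. The groups were apart by more than the spread within either. The log2 difference of -0.18 (SE 0.03, 95% interval -0.26 to -0.10) had a limma adjusted p of 0.0812. Voom gave the same size, -0.18, with an adjusted p of 0.00951, and over 14 alternatives the adjusted p ran from 0.00951 to 0.312, past the threshold in 4. Tyrobp lies at chr7:30413760-30417585 on the plus strand. Its neighbour on the minus strand, Hcst, encodes DAP10, an adaptor without an ITAM. Hcst had 6.25 and 4.95 FPKM with 1,5-AG and 4.57 and 5.89 FPKM in control, with overlapping groups.

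Fcer1g, the common gamma chain, had 132 and 131 FPKM in the 1,5-AG libraries and 139.8 and 146 FPKM in the control libraries. Both treated libraries were below both controls, by a small margin. The log2 difference was -0.12 (SE 0.04, 95% interval -0.22 to -0.02, limma adjusted p = 0.204). No setting brought it past the threshold, with adjusted p from 0.0871 to 0.474 over 14 alternatives. The ratio of Tyrobp to Fcer1g FPKM was 2.70 and 2.75 with 1,5-AG and 2.88 and 2.79 in control.

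Trem2, which binds lipids, lipoproteins and anionic surfaces and signals through DAP12, had 5.82 and 4.86 FPKM in the 1,5-AG libraries. It had 12.2 FPKM in the first control library and 5.63 FPKM in the second, from 916 and 452 fragments. The first control library stood apart from the other 3, and the second lay between the treated libraries. The exact Poisson 95% intervals of the control libraries, 858 to 977 and 411 to 496 fragments, did not meet; over all genes the control libraries also differed by more than counting noise, with a chi-square of 2.95 per degree of freedom. The log2 difference was -0.57 (SE 0.32, 95% interval -1.40 to 0.27, limma adjusted p = 0.434). It was -0.07 without control replicate 1 (adjusted p = 0.853) and -1.06 without control replicate 2 (adjusted p = 0.104). Over all 14 alternatives the log2 difference stayed negative, from -1.06 to -0.07, and the lowest adjusted p was 0.0898, with voom. The groups overlapped and the size of the difference rested on the first control library, so no direction can be given for Trem2 from these libraries. The gene lies at chr17:48346401-48354147 on the plus strand.

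Syk, the kinase that binds phosphorylated ITAMs, had 11.3 and 11.1 FPKM in the 1,5-AG libraries and 12.45 and 12.9 FPKM in the control libraries. The groups did not overlap. The log2 difference of -0.17 (SE 0.05, 95% interval -0.29 to -0.04) did not pass with limma (adjusted p = 0.182) and passed with voom (-0.18, adjusted p = 0.0412). Over 14 alternatives the adjusted p ran from 0.0412 to 0.462. Syk lies at chr13:52583173-52648792 on the plus strand.

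**Figure D2:**
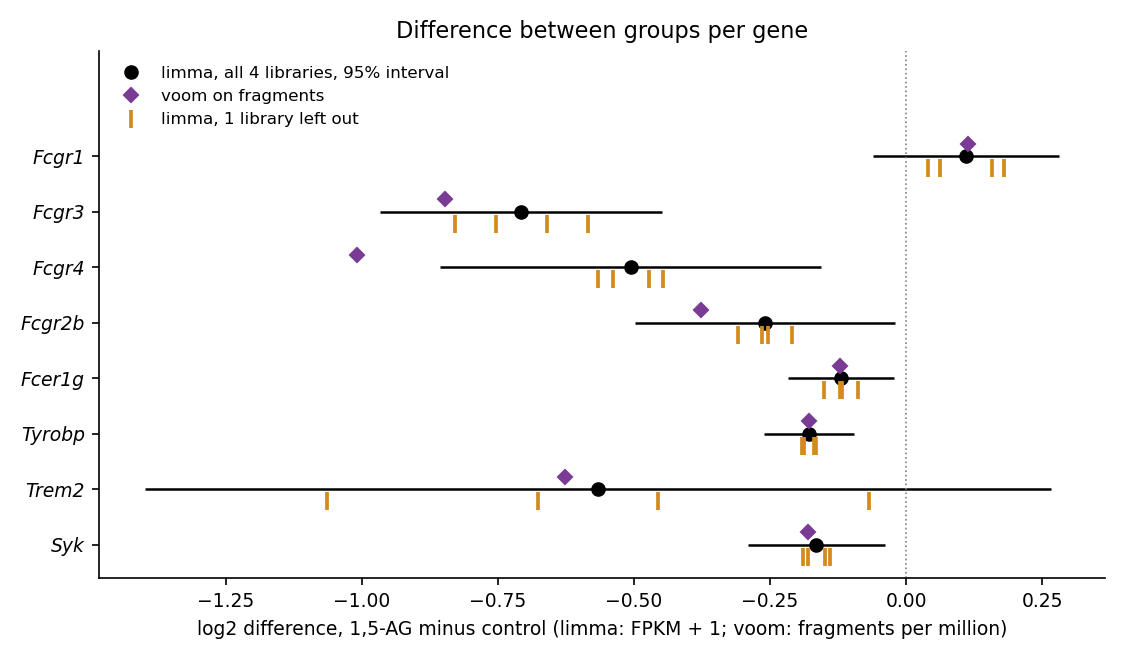
Difference between groups, 1,5-AG minus control, on a log2 scale for each gene; black points and bars are limma with its 95% interval, diamonds voom, and orange ticks limma with 1 library left out. The ticks of Trem2 spread from -1.06 to -0.07, whereas those of Tyrobp and Syk stay close to the black points.

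Taking the activating receptors against the inhibitory receptor, the result depended on Fcgr1. Fcgr2b had 2.07 and 1.86 FPKM in the 1,5-AG libraries and 2.56 and 2.53 FPKM in the control libraries, without overlap (log2 difference -0.26, SE 0.09, limma adjusted p = 0.243). The summed FPKM of Fcgr1, Fcgr3 and Fcgr4 over that of Fcgr2b was 14.5 and 14.4 with 1,5-AG and 12.0 and 11.8 in control. With Fcgr3 and Fcgr4 alone the ratio was 2.37 and 2.26 with 1,5-AG and 3.12 and 3.41 in control, the opposite direction. Both differences had an exact two-sided permutation p of 0.333, the smallest that 2 libraries against 2 can give. Fcgr1 made up 83.6% and 84.3% of the summed activating FPKM with 1,5-AG and 74.0% and 71.1% in control. The sum itself was 29.9 and 26.8 FPKM with 1,5-AG and 30.7 and 29.9 FPKM in control, with overlapping groups. The ratio of Fcgr1 to Fcgr3, computed after their values were seen, was 5.83 and 6.52 with 1,5-AG and 3.402 and 2.946 in control (exact two-sided permutation p = 0.333).

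**Figure D3:**
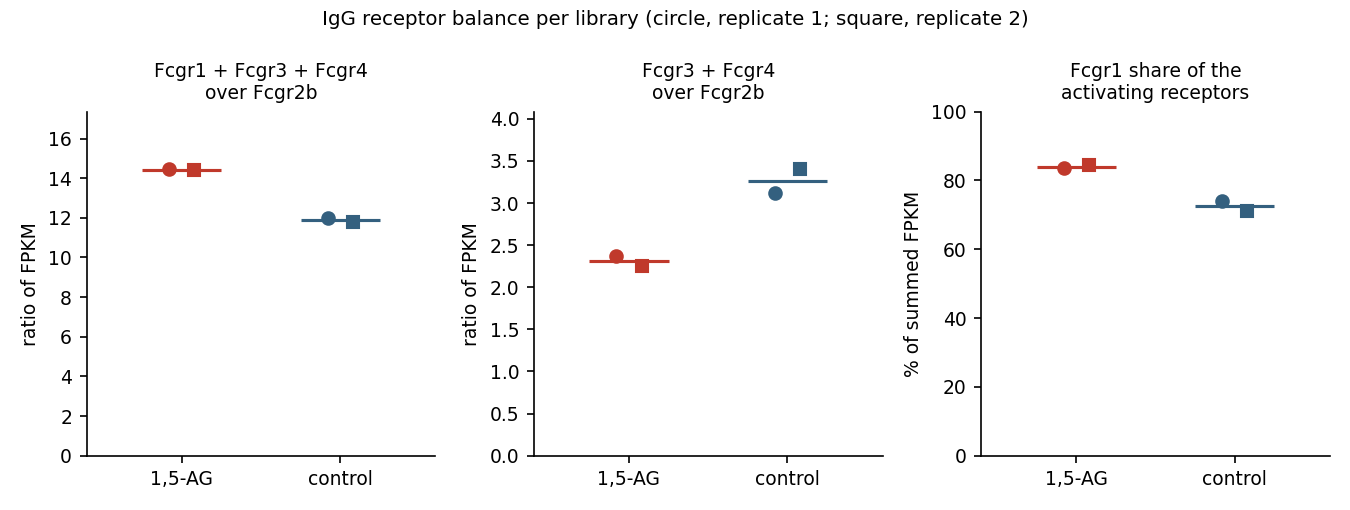
Ratios of FPKM and the share of Fcgr1 in each library, with 1,5-AG left of control; circles are replicate 1, squares replicate 2 and lines group means. The ratio to Fcgr2b is higher with 1,5-AG when Fcgr1 is counted (14.5 and 14.4 against 12.0 and 11.8) and lower when it is not (2.37 and 2.26 against 3.12 and 3.41).

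By mean FPKM the genes ran in the order Tyrobp, Fcer1g, Fcgr1, Syk, Trem2, Fcgr3 and Fcgr4. Neighbours in that order did not overlap across the 4 libraries, except Trem2 with Syk and Trem2 with Fcgr3, which overlapped. Among the 11120 tested genes, Tyrobp ranked 88 and Fcer1g 295 by mean control FPKM, while Fcgr4 ranked 10553. Levels between genes depend on the exon length used. The merged exons of Trem2 span 4946 bases and include an annotated retained-intron transcript, against 1056 bases in its longest coding transcript. Scaled to that transcript, Trem2 stood at 27.3 and 22.8 with 1,5-AG and 57.2 and 26.4 in control. That is above Syk on the same scale (19.8 and 19.3 with 1,5-AG, 21.7 and 22.5 in control), and its treated libraries overlap those of Fcgr1. A length is the same in every library, so this rescaling leaves each gene's ratio between groups as it was.

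The rest of the pathway was followed through lists of genes chosen by role, with earlier results of these data known. Of 9 tested Src, Tec and related kinases, 0 passed with limma and 1 with voom, and the median difference was -0.03. Over all tested genes, 1.46% passed with limma and 8.28% with voom. Ptk2b, a focal adhesion family kinase, had 19.2 and 19.7 FPKM with 1,5-AG and 23.6 and 21.7 FPKM in control (log2 difference -0.21, limma adjusted p = 0.158). The Src family kinase Fgr had 12.0 and 11.4 FPKM with 1,5-AG and 10.0 and 10.4 FPKM in control (0.18, adjusted p = 0.180). In the list of other Fc receptors and related chains 5 of 12 genes were tested and 0 passed with either tool. Its smallest p-values belonged to Fcgr2b and to Fcrl1, an Fc receptor-like protein of B cells, which had 11.65 and 12.5 FPKM with 1,5-AG and 10.8 and 10.9 FPKM in control (0.14, adjusted p = 0.266).

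Among receptors that pair with Fcer1g or Tyrobp or carry a single-tyrosine motif, 11 of 24 were tested, 2 fell and 1 rose. The median difference was 0.04. Cd300ld, which signals with Fcer1g, fell to 24.7 ± 2.15 FPKM with 1,5-AG, against 39.5 ± 1.79 FPKM in control (SD, n = 2 each; log2 difference -0.66, limma adjusted p = 0.0330). Cd33, a sialic acid receptor that pairs with DAP12 in the mouse, had 10.79 and 10.75 FPKM with 1,5-AG and 15.4 and 16.3 FPKM in control (-0.52, adjusted p = 0.0274). Itgb2, the beta chain of the leukocyte integrins, which use ITAM adaptors when they bind ligand, rose to 105.8 ± 0.462 FPKM with 1,5-AG, against 78.5 ± 3.22 FPKM in control (0.43, adjusted p = 0.0275). With voom 4 fell and 1 rose. Over all tested genes, 0.647% fell and 0.809% rose with limma, and 4.64% fell and 3.64% rose with voom. The 10 genes below the filter included Trem1, Oscar and Siglech.

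Of 31 tested effectors downstream of Syk, 1 fell and 0 rose with limma, and 9 fell and 1 rose with voom. The shares over all tested genes were 0.647% and 0.809% with limma, and 4.64% and 3.64% with voom. The median difference was -0.07, with 23 negative and 8 positive, where 50.9% of all tested genes were negative. The 1 that fell was Nfatc1, the calcium-driven transcription factor that ITAM signals switch on in osteoclasts, with 11.3 and 12.0 FPKM in 1,5-AG libraries and 16.9 and 16.5 FPKM in control libraries (-0.49, adjusted p = 0.0315). Plcg2, the phospholipase that Syk activates, was singled out after its values were seen. It had 42.2 and 42.7 FPKM with 1,5-AG and 51.9 and 49.7 FPKM in control (-0.25, limma adjusted p = 0.0694, voom adjusted p = 0.0008). Rac2, the 1 effector that rose with voom, had 227.1 and 230.5 FPKM with 1,5-AG and 200.9 and 202.9 FPKM in control. Its log2 difference was 0.18 (limma adjusted p = 0.0828, voom adjusted p = 0.00187).

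Of 25 tested inhibitory receptors, phosphatases and ubiquitin ligases, 3 fell and 0 rose with limma, at a median of -0.07. With voom 9 fell and 0 rose. Over all tested genes, 0.647% fell with limma and 4.64% with voom, and 0.809% and 3.64% rose. Sirpa, the receptor of the "do not eat me" signal CD47, fell to 92.4 ± 1.94 FPKM with 1,5-AG, against 125.0 ± 0.794 FPKM in control (SD, n = 2 each; -0.43, limma adjusted p = 0.0209). Cd300a, an inhibitory receptor for phosphatidylserine, had 14.3 and 14.5 FPKM with 1,5-AG and 21.6 and 21.6 FPKM in control (-0.55, adjusted p = 0.0209). Dok3, an adaptor that dampens ITAM signals, had 17.8 and 18.9 FPKM with 1,5-AG and 24.9 and 24.8 FPKM in control (-0.42, adjusted p = 0.0352).

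Among TREM2-linked genes 11 of 16 were tested, and 1 rose and 1 fell. Adam10, a protease that sheds the ectodomain of TREM2, rose to 71.0 ± 0.931 FPKM with 1,5-AG, against 53.0 ± 1.27 FPKM in control (SD, n = 2 each; 0.41, limma adjusted p = 0.0248). Gpnmb, a membrane glycoprotein of lipid-laden macrophages, fell to 92.4 ± 0.0944 FPKM with 1,5-AG, against 120.1 ± 1.83 FPKM in control (-0.37, adjusted p = 0.0244). With voom 4 rose and 1 fell, and the median of the list was 0.06. Over all tested genes, 0.809% rose and 0.647% fell with limma, and 3.64% rose and 4.64% fell with voom. Of the 6 ITAM chains of lymphocytes 4 were measured and 0 reached the filter: Cd79a, the one with most fragments, had 4 and 4 fragments with 1,5-AG and 3 and 3 in control. With limma, 9 list genes passed with all 4 libraries and 0 with any 1 of them left out.

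**Figure D4:**
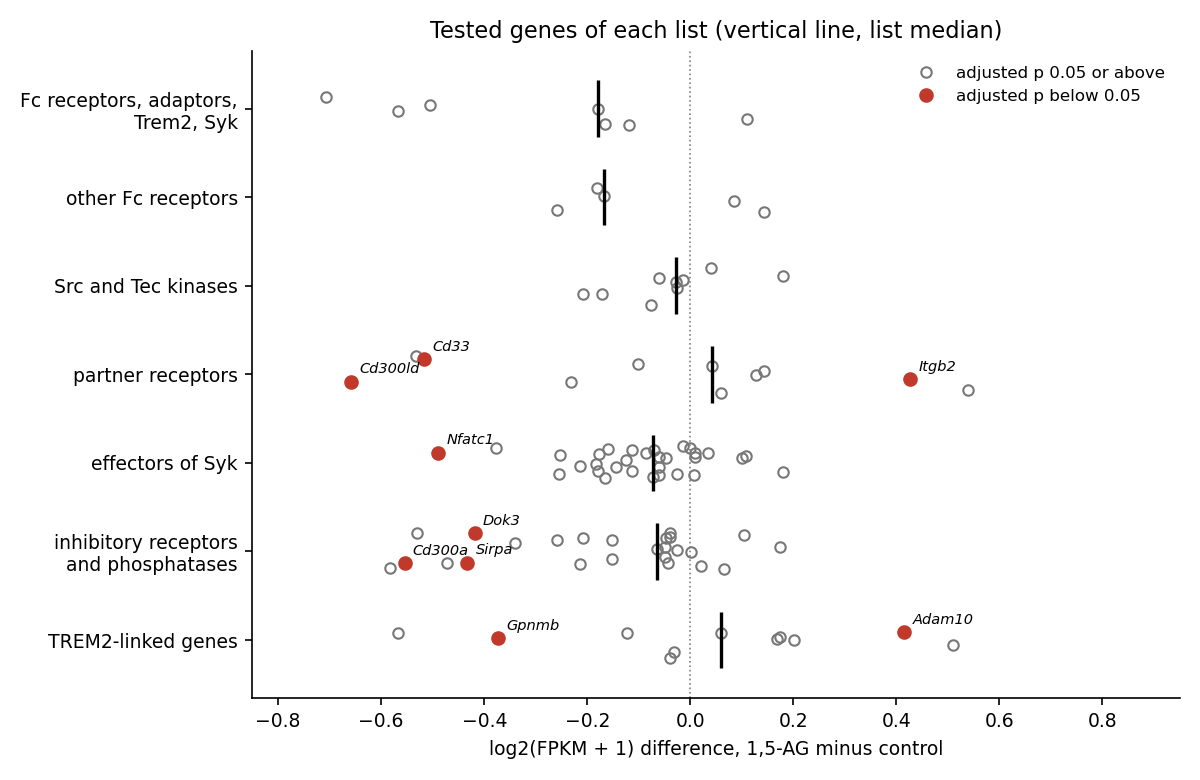
Difference between groups, 1,5-AG minus control, as log2(FPKM + 1) for each tested gene, 1 row per list; filled points have a limma adjusted p below 0.05 and vertical lines are list medians. The 9 filled points lie in the partner, effector, inhibitor and TREM2-linked lists, 7 to the left and 2 to the right of 0.

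The pattern over the 4 libraries was compared with that of 9238 other protein coding genes, by the Euclidean distance between centred log2(FPKM + 1) values. The gene nearest to Fcgr3 was Ms4a6d, at a distance of 0.0701, with 12.2 and 10.6 FPKM with 1,5-AG and 19.4 and 19.6 FPKM in control (log2 difference -0.73, limma adjusted p = 0.0286). Nearest to Fcgr4 was L1cam (0.0285), to Fcgr1 Psmc3ip (0.0133) and to Tyrobp Trim45 (0.0113). Trim45 was near the filter, at 1.40 and 1.43 FPKM with 1,5-AG and 1.70 and 1.77 FPKM in control. At that level the scale understates differences, and voom gave -0.29 for Trim45 and -0.18 for Tyrobp. Nearest to Fcer1g was Serpinb6a (0.00997) and to Syk Foxo3 (0.00969). Trem2 had no close match, its nearest gene being Scand1 at 0.445. Among themselves Tyrobp and Syk were closest (0.0478), followed by Fcer1g and Syk (0.0512) and Fcer1g and Tyrobp (0.07). Fcgr1 and Trem2 were farthest apart (0.93). These distances describe 4 libraries and carry no test.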

How the data were processed

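Trizol RNA was made into TruSeq stranded mRNA libraries, per the labels' protocols. The authors deposited FPKM for each library; HTSeq, Cufflinks, HISAT2, Trimmomatic and the build mm10 are named, without roles or versions, per the submitters' processing notes. FPKM is a share of a library, so abundant genes shift all others. Of 21523 identifiers 21508 matched GENCODE M21. FPKM times merged exon length gave whole fragments, within 0.02, in all libraries for 99.4% of these. Genes with a mean of at least 1 FPKM were tested with limma 3.58.1 (R 4.3.3) on log2(FPKM + 1), with no covariate and with a trended prior variance, two-sided, adjusted over all 11120 genes. Fold changes on that scale understate those of weak genes. The median prior degrees of freedom were 3.05. The test was also tried on simulated fragments, with levels taken from these libraries and a spread that was set, not estimated. There 2% of 1.25-fold changes passed in the right direction, as did 50% of 1.5-fold and 87.8% of 2-fold changes. Alternatives were pseudocounts, filters, scalings, left-out libraries, a replicate block and voom on recovered fragments. Genes named were the 7, list genes past the threshold (else the 2 with the smallest p), Fcgr2b, Hcst, 3 identity genes and nearest patterns. Members and lists were chosen with earlier results of these data known. Sequence work used Python 3.11.15 with Biopython 1.88.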

Additional observations from a re-analysis of the deposited data

How the results depend on the processing

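Genes past the limma threshold numbered 162, against 0 without a filter on low values (2628 at an unadjusted p under 0.05), 360 at a mean of at least 5 FPKM, 5 without the variance trend, 412 among protein coding genes, 915 with voom and 310 with the replicate block. With 1 library left out they numbered 2 to 10. Of the 7 Fc receptor, adaptor, Trem2 and Syk genes, 0 passed. Fcgr3 and Tyrobp made 2 at a mean of at least 5 FPKM, where Fcgr4 was not tested, and 2 with the replicate block. With protein coding genes alone 3 passed (Fcgr3, Fcgr4, Tyrobp), as did 3 with voom (Fcgr3, Tyrobp, Syk). In the other settings, with 1 library left out included, 0 passed. Genes of the other lists numbered 9, against 0 without a filter (42 unadjusted), 0 without the trend (36 unadjusted), 14 at 5 FPKM, 19 among protein coding genes, 30 with voom, 13 with the replicate block and 0 with any 1 library left out. The cause of these changes was not tested. Some of the settings leave fewer genes or libraries. A lone library left in a group is assumed to vary like the other group.

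The replicate numbers did not visibly pair the libraries: across genes, deviations within a number had a correlation of 0.0124, and the labels do not say that a number marks a shared culture. The activating to inhibitory ratio differed by 2.54 (1,5-AG minus control), by -0.95 without Fcgr1, by 1.42 with lengths of the longest coding transcripts (chosen after seeing the data) and by 2.44 to 2.65 with 1 library left out. Sign changes among named genes were Hcst, -0.06 without 1,5-AG replicate 1 and -0.0686 without control replicate 1 (range with 1 library left out -0.0686 to 0.24), and Scand1, 0.41 without control replicate 1 (range -0.67 to 0.41). No alternative turned the sign of any of the 7. Across 97 refits of the 7, 87 kept their side of the threshold and 10 passed it. Median-ratio and quantile scaling moved the median of all genes by 0.00346 and 0.0014. The small numbers of fragments limit Fcgr4 most.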
